A study of Homo sapiens with 6 samples.

Results

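The HOX genes encode transcription factors with a homeodomain, the DNA-binding fold that defines homeobox genes, and they lie in 4 clusters on different chromosomes. Their protein-coding rows were taken from the deposited counts of the siSURF2 study by symbol (HOXA, HOXB, HOXC or HOXD followed by a number), which gave 39 genes of 19737 protein-coding rows and 58051 gene rows in all. HOXA (chr7:27092993-27200106) held 11 of them, HOXB (chr17:48528526-48729178) 10, HOXC (chr12:53938765-54056030) 9 and HOXD (chr2:176092891-176190907) 9, in GRCh38 coordinates of GENCODE 29. RNA came from U2OS, a human osteosarcoma cell line. In 3 libraries the cells had received a scrambled siRNA (siSCR), and in the other 3 an siRNA against SURF2 (siSURF2). Both groups had 2 transfections at an interval of 49 h, for 96 h in all. The title of the series links SURF2 with MDM2 and nucleolar stress, and the comparison asked which mRNAs differed once SURF2 was lowered.

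In embryos, HOX genes are switched on along the head-to-tail axis in the order in which they lie in their cluster, and each body level comes to express its own combination of them. Genes that hold the same place in different clusters descend from 1 ancestral gene, form a paralog group with the same number, and often overlap in function. Polycomb proteins keep HOX genes silent outside their domain, Trithorax proteins keep them active within it, and retinoic acid induces mainly the low-numbered genes. Adult mesenchymal cells, osteoblasts among them, keep part of the HOX pattern of their place of origin. Here paralog groups 1 to 3 are called anterior, 4 to 8 central and 9 to 13 posterior.

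Counts assigned to genes lay between 17123333 and 19688089 per library, so that 1 CPM (the usual library-scaled count, here with TMM factors) stood for 16.8 to 20 counts. SURF2 itself was at 32.3 to 36.2 CPM in siSCR and 3.20 to 3.74 CPM in siSURF2 libraries (log2 fold change -3.31 ± 0.10 SE, edgeR adjusted p = 3.7e-20). At an edgeR adjusted p under 0.05, 25.8% of the 17561 genes tested were higher in siSURF2 and 26.2% were lower, 52.0% in all, and the median log2 fold change was 0.0042. Group ranges did not overlap for 57.3% of the genes tested. No pair of libraries was alike within sampling noise, and siSURF2 replicate 2 lay farthest from its group (its chi-square over degrees of freedom was 7.96 and 9.19 with replicates 1 and 3, which had 2.68 between them). The labels name no separate cultures, so the spread behind the p-values may be technical. In bulk RNA, fewer cells that express a gene and less of its RNA per cell cannot be told apart. Of 12 osteoblast lineage markers, RUNX2 was at 22.8 ± 1.60 and 23.1 ± 1.88 CPM (SD, n = 3 each) and COL1A1 at 167.3 and 225.8 CPM, SPP1 (osteopontin) rose from 6.51 to 20.6 CPM and PRRX1 from 4.63 to 10.4, and ALPL, the bone alkaline phosphatase, fell from 3.15 to 0.742 CPM (edgeR adjusted p = 1.9e-05, 3.7e-08 and 8.3e-08), while SP7 and BGLAP were under 0.3 CPM and IBSP and TWIST1 at 0 counts. Of the 6 tested markers 3 were called higher, 1 lower and 2 not (66.7% called, against 52.0% of all genes). MSX2, at 4.11 CPM in both groups, was among those not called. The summed level of this list, most of it COL1A1, was 206.7 to 214.1 CPM in siSCR and 264.0 to 299.5 in siSURF2. Epithelial markers summed to 23.3 to 27.6 and 44.4 to 45.4 CPM, with CLDN4 rising from 16.3 to 34.3 and EPCAM from 4.41 to 8.75 CPM, whereas CDH1 (E-cadherin) fell from 3.19 to 0.484 CPM (adjusted p = 1.1e-11, 4.4e-07 and 2.0e-08). Endothelial markers summed to 6.37 to 8.32 and 3.72 to 4.85, and blood markers to 2.32 to 3.39 and 0.950 to 1.14, with CD3E and HBB at 0. The part of these shifts in the HOX values was not tested.

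Paralogs resemble each other most in the homeodomain, so it was checked how far reads of HOX genes could be confused. Over 1 transcript per gene from GENCODE 29, 3 of 741 pairs of HOX genes shared an exact run of 50 or more bases (HOXB3 with HOXD3 62, HOXB6 with HOXB7 51, and HOXB4 with HOXB5 50 bases) and none shared 100. HOXB5 also shared 40 bases with HOXD3 and 23 with its paralog HOXA5. HOXC8 shared at most 26 bases with any HOX gene, with 19 for its paralog HOXB8 and 15 for HOXD8. Exons of other transcripts were left out of this check, so it does not cover reads from exons that neighbours share. Over all annotated exons, HOXD11 shares 21.4% of its bases with HOXD10 and HOXB6 16.6% with HOXB3. HOXC4 shares 17.8% with HOXC6 and another annotated record named HOXC5. That record is not the HOXC5 gene described here, which shares no exon base with HOXC4.

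U2OS cells expressed HOX genes of all clusters, and most of the signal came from HOXB and HOXC. Levels of different genes were compared per length, as FPKM (CPM divided by exon length in kilobases). A mean of at least 1 FPKM in either group was reached by 26 of 39 genes: 8 of 11 in HOXA, 7 of 10 in HOXB, 7 of 9 in HOXC and 4 of 9 in HOXD. Another 5 genes (HOXA7, HOXA13, HOXB4, HOXB8 and HOXD3) passed the count filter at lower levels, and 8 did not pass it. HOXB2, which patterns the hindbrain, had the highest level in siSCR with 24.2 ± 0.38 FPKM, and HOXB9, a gene of thoracic identity, came next with 14.6 ± 1.32 FPKM (SD, n = 3 each). HOXC8, a gene of the thoracic and limb-level trunk, followed with 13.5 ± 0.56, HOXC10, of the lumbar region and hindlimb, with 10.5 ± 0.71, and HOXC13, known for hair and nails, with 7.68 ± 0.72 FPKM. Along this order in siSCR, the ranges of 27 of 38 neighbouring genes overlapped and 11 were apart. HOXB2 stood clear of HOXB9, whereas HOXB9 and HOXC8 overlapped. HOXC8, HOXC10 and HOXC13 were apart from each other, and HOXC13 overlapped the next gene, HOXD8.

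**Figure D1:**
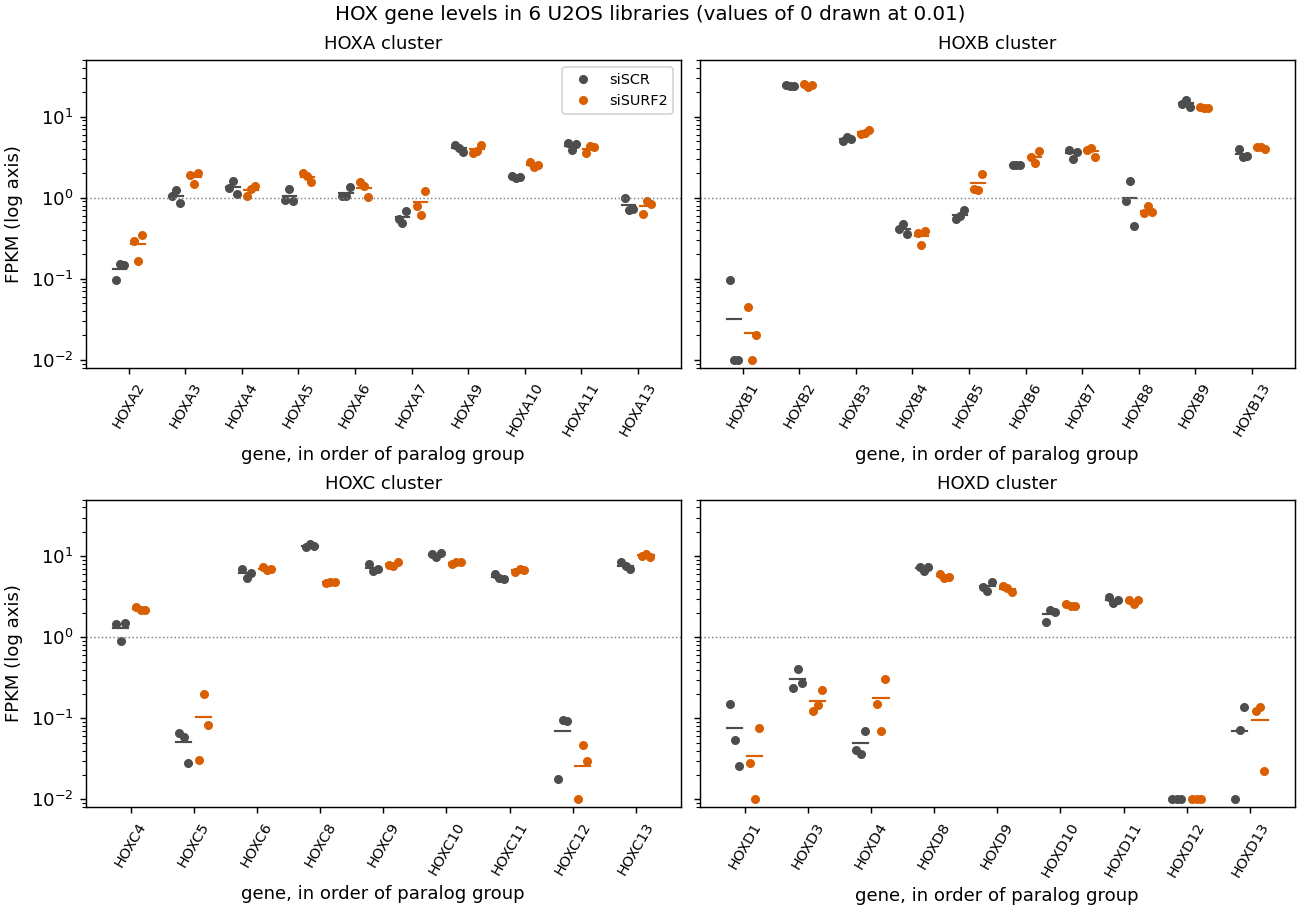
Level of 38 of the 39 HOX genes in FPKM (log axis) in the 3 siSCR (grey) and 3 siSURF2 (orange) libraries, by cluster and in order of paralog group; points are libraries, bars are group means and the dotted line marks 1 FPKM. HOXB2 lies highest in both groups, HOXC8 is the gene whose groups stand farthest apart among those above 1 FPKM in siSCR, and HOXD12 has 0 counts in all libraries.

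Most of HOXC was expressed. All of its genes from HOXC4 to HOXC13 reached 1 FPKM apart from HOXC5 and HOXC12, which had at most 7 counts in any library. In HOXB, the high genes HOXB2, HOXB3 and HOXB9 stood beside low ones: HOXB4 was at 0.412 ± 0.057 and HOXB8 at 0.980 ± 0.574 FPKM in siSCR. HOXA had its highest levels at HOXA11 (4.39 ± 0.47) and HOXA9 (4.08 ± 0.37), genes of the forelimb and of blood stem cells. HOXD was expressed from HOXD8 to HOXD11, with 7.15 ± 0.45 FPKM at HOXD8, and its outer genes HOXD1, HOXD4, HOXD12 and HOXD13 did not pass the filter. HOXD12 had 0 counts in all 6 libraries, which allows up to 3 counts, or 0.150 to 0.179 CPM, in each (counting error only). HOXD13, a gene of digit formation, had at most 6 counts and HOXD4 at most 9. HOXB1, of the hindbrain, had at most 4 and HOXD1 at most 5. Exons shared with other genes make up 59.9% of HOXC5, 58.1% of HOXD1 and 80.5% of HOXD4, so reads may have been dropped there. For HOXC5 the other genes include the other record of the same name. HOXA2, HOXB1, HOXC12, HOXD12 and HOXD13 share no exon base. HOXA2, which patterns the second branchial arch, had 4, 7 and 7 counts in siSCR and 13, 8 and 17 in siSURF2. These ranges do not overlap, but the gene did not pass the filter and was not tested.

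The number expressed depends on how levels are set. With the length of the longest transcript in place of all exons 28 genes reached 1 FPKM, and at a threshold of 0.5 FPKM 29 did. Exons of 18 of the 39 genes share over 10% of their bases with another gene. Whether counting used strand is not given in the sources used, so reads from such stretches cannot be told apart. Among the 21 genes with at most 10% shared, 14 reached 1 FPKM.

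Summed over the 39 genes, HOX signal was alike in both groups, at 147.3, 141.4 and 140.3 FPKM in siSCR replicates 1 to 3 and 142.1, 139.7 and 143.1 in siSURF2. The ranges overlapped. HOXB held 39.0 ± 1.24% of it in siSCR and 40.6 ± 0.32% in siSURF2, and HOXC 36.4 ± 1.02% and 33.5 ± 0.64% (SD, n = 3 each). HOXA held 12.99 ± 0.24% and 15.1 ± 0.45%, and HOXD was at 11.7 ± 0.80% and 10.9 ± 0.53%. By position, the central genes held 28.3 ± 0.28% in siSCR and 24.5 ± 0.42% in siSURF2, the anterior ones 23.3 ± 0.77% and 25.3 ± 0.58%, and the posterior ones 48.4 ± 0.82% and 50.2 ± 0.92%. HOXC8 alone held 9.48 ± 0.55% in siSCR and 3.36 ± 0.08% in siSURF2. Summed, the other HOXC genes went the other way, from 26.9 ± 1.57% to 30.1 ± 0.56%, as did the other central genes, from 18.9 ± 0.58% to 21.1 ± 0.50%. Not every one of them rose: HOXC10 and the central gene HOXD8 were called lower. The net fall in the HOXC and central shares thus came through HOXC8. For HOXA, HOXC and all positions the groups did not overlap, with an exact two-sided permutation p of 0.10, the smallest that 3 libraries against 3 can give. For HOXB and HOXD the groups overlapped, with p of 0.20 and 0.30. Taken over counts in place of FPKM, HOXC and the posterior genes overlapped (p of 0.20 and 0.50) and HOXD did not (0.10). The shares are parts of 1 whole and so not independent. Adjusted over the 7 shares compared, the smallest p was 0.14.

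**Figure D2:**
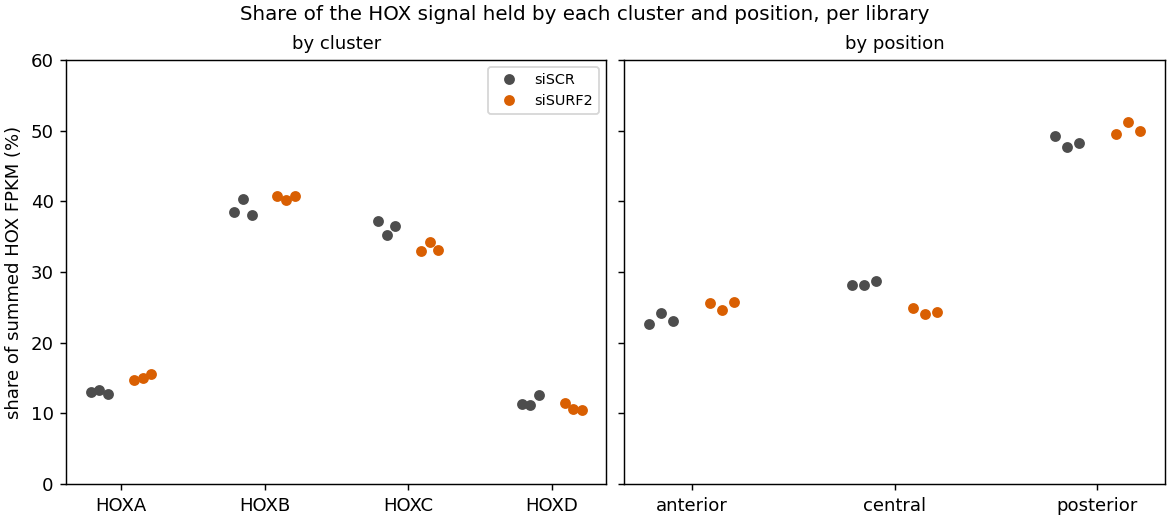
Share of the summed HOX FPKM in percent held by each cluster (left) and by anterior, central and posterior genes (right), 1 point per library, siSCR grey and siSURF2 orange. The central share lies at 28.1% to 28.7% in siSCR and 24.1% to 24.9% in siSURF2, and the HOXB shares overlap.

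Of the 39 HOX genes, 31 passed the count filter and were tested, and 16 were called at an edgeR adjusted p under 0.05. That is 51.6% of those tested, against 52.0% of all genes. By direction, 11 were higher (35.5%, against 25.8%) and 5 lower (16.1%, against 26.2%), and 15 were not called. The split was 14 higher and 3 lower with upper-quartile factors, 13 and 3 without factors, 8 and 3 by DESeq2, and 1 and 1 (HOXB5 and HOXC8) with library sizes set by ERCC spike-ins. The median log2 fold change was 0.17, beside 0.0042 over all genes, and single genes ran from -1.51 (HOXC8) to 1.27 (HOXB5). Groups did not overlap for 16 of the 31, or 51.6%, against 57.3% of all genes. Calls were spread over the clusters: 3 higher and 0 lower of 10 tested in HOXA, 4 and 1 of 9 in HOXB, 3 and 2 of 7 in HOXC, and 1 and 2 of 5 in HOXD. In HOXA no tested gene was lower at an unadjusted edgeR p under 0.05 either, nor by DESeq2 or limma-voom. By position, 2 anterior genes were higher and 1 lower of 5 tested, 4 and 2 of 13 central genes, and 5 and 2 of 13 posterior genes. Neighbours in a cluster did not always share a direction. Of 27 pairs of adjacent tested genes both members were called in 5, with the same direction in 3 (HOXB5 with HOXB6, HOXC11 with HOXC13, HOXD3 with HOXD8) and opposite directions in 2 (HOXB9 with HOXB13, HOXC10 with HOXC11). Each of these pairs holds a gene whose call was lost in some setting other than ERCC sizes (HOXB6, HOXB9, HOXB13, HOXC11 or HOXD3).

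**Figure D3:**
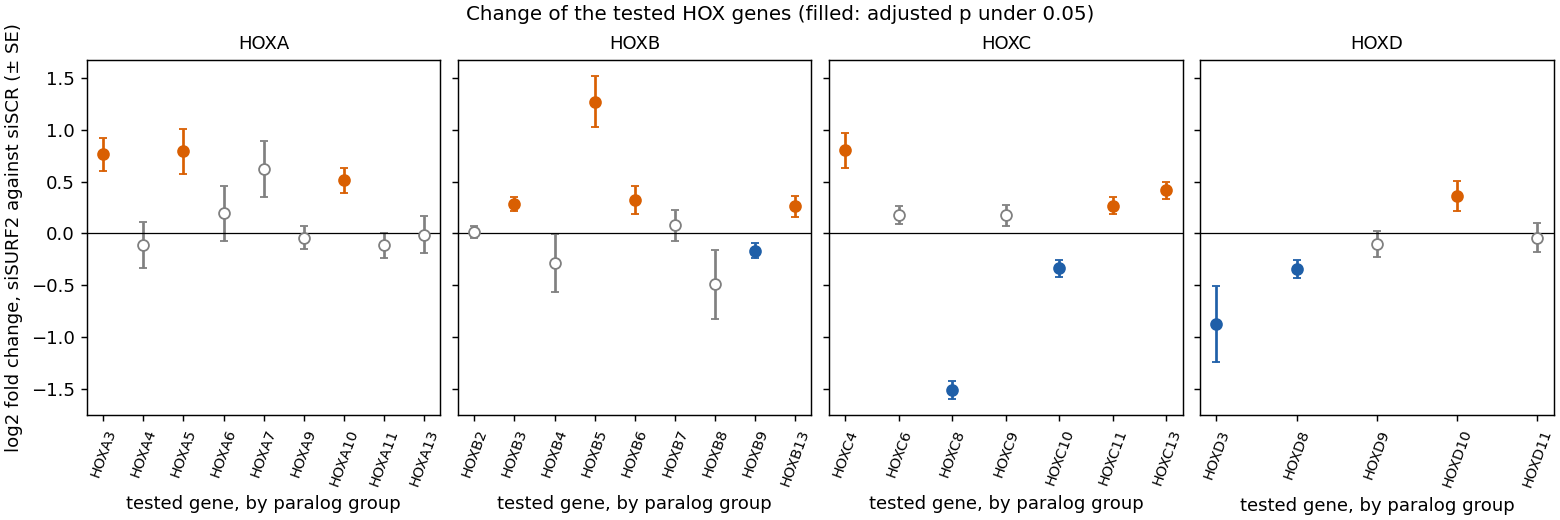
Log2 fold change of siSURF2 against siSCR with its SE for 30 of the 31 tested HOX genes, by cluster and paralog group; filled orange points were called higher, filled blue points lower, and open points were not called by edgeR (adjusted p under 0.05). HOXC8 lies lowest at -1.51 and HOXB5 highest at 1.27, and calls in both directions occur in HOXB, HOXC and HOXD.

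HOXC8 (ENSG00000037965) fell more than any other tested HOX gene. It was at 24.9, 26.8 and 25.1 CPM in siSCR and 8.80, 9.09 and 9.05 CPM in siSURF2 libraries. Every siSURF2 library lay far below every siSCR library. The level was 2.85-fold lower (log2 fold change -1.51 ± 0.09 SE, edgeR adjusted p = 3.6e-14). Its exons overlap no exon of another annotated gene, although the gene lies inside the gene body of HOXC6. Its neighbours by number were not called: HOXC9 was at 13.5, 10.9 and 11.6 CPM in siSCR and 13.3, 12.9 and 14.2 in siSURF2 (0.17 ± 0.10, adjusted p = 0.16), and HOXC6 at 24.8, 19.3 and 22.2 and 26.2, 24.2 and 24.3 CPM (0.18 ± 0.08, adjusted p = 0.083). Both neighbours, which set limb-level and thoracic motor neuron identity, had overlapping groups. Within a library, the log2 ratio of HOXC8 to HOXC9 went from a mean of 0.93 in siSCR to -0.75 in siSURF2, a difference of -1.68 (exact permutation p = 0.10, the smallest possible). Against its paralogs the difference of that ratio was -1.17 for HOXD8 and -1.19 for HOXB8 (exact permutation p = 0.10 each). These were among 9 ratios, of pairs chosen with their values known, and the smallest p adjusted over the 9 was 0.11.

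The paralog HOXD8 fell as well, by less. Its level was 19.6, 17.4 and 19.3 CPM in siSCR and 16, 14.1 and 14.4 CPM in siSURF2. All siSURF2 libraries were below all siSCR libraries (-0.34 ± 0.09, edgeR adjusted p = 0.0020). HOXB8, known from myeloid progenitors, was too scattered to be called, at 1.85, 3.26 and 0.924 CPM in siSCR and 1.32, 1.60 and 1.35 CPM in siSURF2 (-0.49 ± 0.33, adjusted p = 0.23). The siSCR libraries lay on both sides of the siSURF2 ones. Without siSCR replicate 3 it was called lower (-0.86, adjusted p = 0.013), and without siSCR replicate 2 its log2 fold change was 0.07.

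Of the posterior genes, HOXC10 and HOXB9 fell. HOXC10 was at 24.9, 22.5 and 25.7 CPM in siSCR and 18.5, 19.6 and 19.7 CPM in siSURF2, with no overlap (-0.34 ± 0.08, edgeR adjusted p = 7.8e-04). HOXB9 was at 37.4, 41.1 and 34.4 CPM in siSCR and 33.8, 33.5 and 33.2 CPM in siSURF2, with its lowest siSCR library just above the siSURF2 ones (-0.17 ± 0.07, adjusted p = 0.048). The HOXB9 call was lost without any of 5 of the 6 libraries (siSCR replicate 3 excepted), and its adjusted p reached 0.36 without siSCR replicate 2, where the log2 fold change was -0.09. It was also lost with DESeq2 (adjusted p = 0.099), limma-voom (0.060), upper-quartile factors (0.15), no factors (0.093), no filter (0.13) and the 1 CPM filter (0.051). HOXD3, of the neck vertebrae, had 14, 27 and 19 counts in siSCR and 8, 10 and 16 in siSURF2 (-0.88 ± 0.37, adjusted p = 0.045). The groups did not overlap in CPM, but 74.1% of its exon bases are shared with other genes: 62.2% with AC009336.2 on the same strand and 14.6% with opposite-strand genes, HAGLR among them. Its call was lost with DESeq2 (adjusted p = 0.12) and on leaving out siSCR replicate 2 (0.26), siSCR replicate 3 (0.059), siSURF2 replicate 1 (0.17) or siSURF2 replicate 2 (0.11). It was also lost with a replicate block (0.057), upper-quartile factors (0.060), no factors (0.053) and no filter (0.089).

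HOXB5 (ENSG00000120075), a gene of lung and neural crest development, rose most. It had 19, 23 and 28 counts in siSCR and 48, 49 and 81 in siSURF2, which is 1.13, 1.23 and 1.44 CPM and 2.64, 2.53 and 4.05 CPM. All siSURF2 libraries lay above all siSCR libraries, and siSURF2 replicate 3 was the highest. The level was 2.43-fold higher (1.27 ± 0.25, edgeR adjusted p = 7.6e-05). Its paralog HOXA5, which acts at the border of neck and thorax and in the lung, was at 1.61, 2.19 and 1.54 CPM in siSCR and 3.41, 3.20 and 2.70 CPM in siSURF2, without overlap (0.80 ± 0.22, adjusted p = 0.0031). The log2 ratio of HOXB5 to HOXA5 differed by 0.44 between the groups (exact permutation p = 0.40). HOXC5, the remaining paralog, had 1 to 7 counts and was not tested. The neighbour HOXB4, used to expand blood stem cells, was at 1.55, 1.77 and 1.34 CPM in siSCR and 1.38, 0.981 and 1.45 in siSURF2 and was not called (-0.29 ± 0.28). The log2 ratio of HOXB5 to HOXB4 was higher by 1.55 in siSURF2 (exact permutation p = 0.10).

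Other central and anterior genes rose. HOXC4, of the neck and upper thorax, was at 3.99, 2.46 and 4.06 CPM in siSCR and 6.38, 5.94 and 5.997 CPM in siSURF2 (0.80 ± 0.17, edgeR adjusted p = 2.5e-04). The groups were apart, and 17.8% of its exon bases are shared with HOXC6 and the other record named HOXC5. HOXA3, needed for thymus and parathyroid, was at 4.58, 5.35 and 3.75 CPM in siSCR and 8.30, 6.30 and 8.60 CPM in siSURF2, also without overlap (0.76 ± 0.16, adjusted p = 1.5e-04). Of its exon bases 17.9% are shared with other genes, 15.4% with opposite-strand ones. HOXB3, of the hindbrain and pharynx, was far more abundant, at 37.3, 41.9 and 39.4 CPM in siSCR and 46.1, 47.6 and 50.6 CPM in siSURF2. Its groups did not overlap and its rise was small (0.28 ± 0.06, adjusted p = 5.3e-04). HOXB3 shares 13.2% of its exon bases with other genes, HOXB4 and HOXB6 among them. HOXB6, of the trunk, was at 6.67, 6.63 and 6.62 CPM in siSCR and 8.25, 6.92 and 9.75 CPM in siSURF2 (0.32 ± 0.13, adjusted p = 0.043). The siSURF2 libraries spread widely, and 33.0% of its exon bases are shared with other genes, 16.6% with HOXB3. The HOXB6 call was lost without any 1 of 5 libraries (siSURF2 replicate 2 excepted), up to an adjusted p of 0.29 and a log2 fold change of 0.19 without siSURF2 replicate 3, and with DESeq2 (0.10), limma-voom (0.065) and a replicate block (0.052).

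Among the posterior genes that rose, HOXA10, which sets lumbar identity and patterns the uterus, changed most. It was at 6.90, 6.42 and 6.62 CPM in siSCR and 10.2, 8.98 and 9.35 CPM in siSURF2, clearly apart (0.51 ± 0.12, edgeR adjusted p = 6.5e-04). Exons shared with other genes make up 26.3% of its length. HOXC13 was at 20.5, 18.3 and 17.1 CPM in siSCR and 24.8, 25.9 and 23.8 CPM in siSURF2 (0.42 ± 0.08, adjusted p = 9.9e-05). All siSURF2 libraries were higher. It thus went the opposite way from HOXC10 of the same cluster: the log2 ratio of HOXC13 to HOXC10 was higher by 0.76 in siSURF2, and that of HOXA10 to its paralog HOXC10 by 0.85 (exact permutation p = 0.10 each). HOXC11, of the sacral region and hindlimb, was at 19.8, 17.8 and 16.9 CPM in siSCR and 21.0, 22.7 and 21.9 CPM in siSURF2 (0.27 ± 0.08, adjusted p = 0.0082). The groups were apart, and without siSCR replicate 3 the adjusted p was 0.052.

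HOXD10 and HOXB13 passed by little. HOXD10, of lumbar motor neurons, was at 4.11, 5.78 and 5.60 CPM in siSCR and 6.93, 6.56 and 6.55 CPM in siSURF2 (0.36 ± 0.15, edgeR adjusted p = 0.039). It shares 16.8% of its exon bases with HOXD11. Its siSCR replicate 1 was the lowest library, and without it the log2 fold change was 0.22 (adjusted p = 0.24). That call was also lost without any single siSURF2 library (adjusted p of 0.093, 0.059 and 0.057 without replicates 1, 2 and 3) and with DESeq2 (0.090). HOXB13, a regulator of prostate development, was at 14.1, 10.9 and 11.3 CPM in siSCR and 14.8, 14.5 and 14.0 CPM in siSURF2. Its siSCR replicate 1 lay within the siSURF2 range (0.26 ± 0.10, adjusted p = 0.035). The HOXB13 call was lost without siSCR replicate 2 (adjusted p = 0.16), siSCR replicate 3 (0.13), siSURF2 replicate 1 (0.082) or siSURF2 replicate 2 (0.072), and with DESeq2 (0.085).

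**Figure D4:**
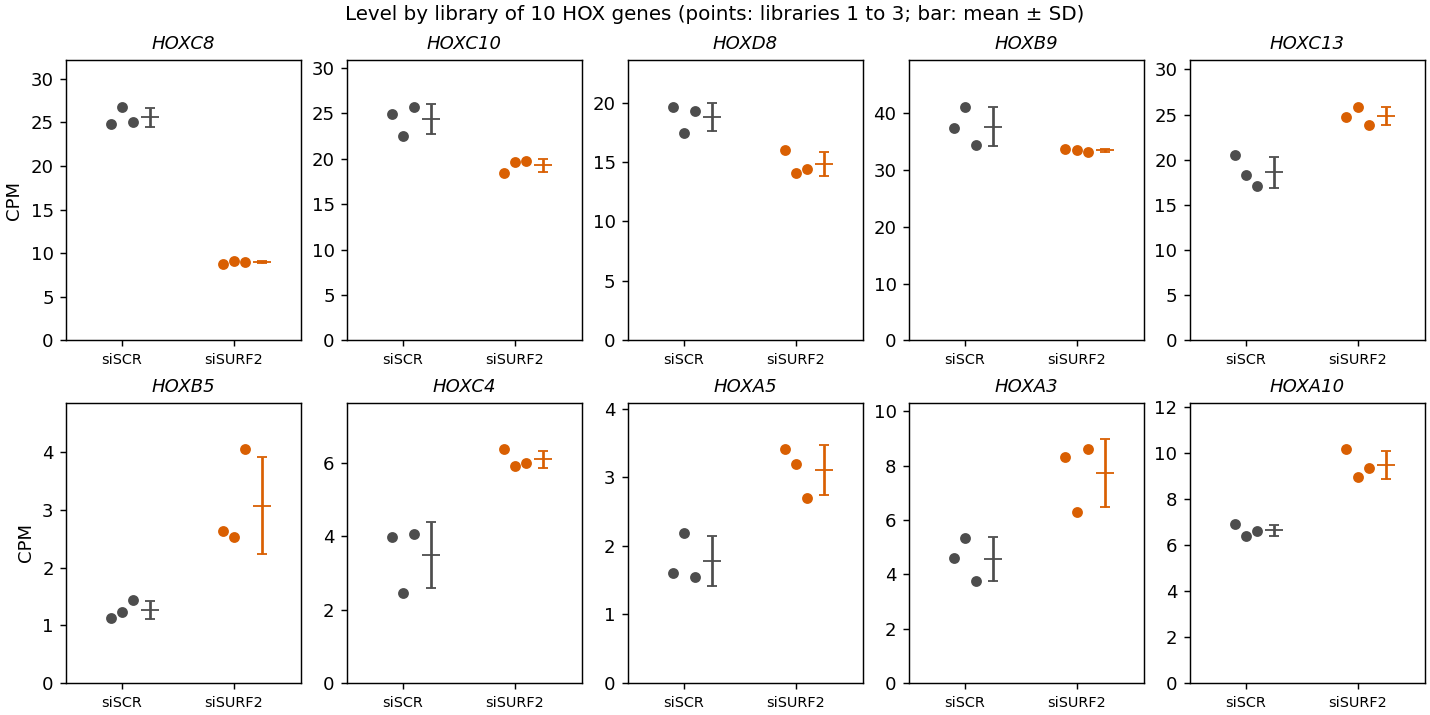
Level in CPM of 10 HOX genes in each library (points, replicates 1 to 3 from left to right; siSCR grey, siSURF2 orange) with the mean and SD beside them; each panel has its own axis from 0. HOXC8 falls from 24.9 to 26.8 CPM in siSCR to 8.80 to 9.09 CPM in siSURF2, HOXB9 shows the narrowest gap between groups, and the 3 siSURF2 libraries of HOXB5 are spread most.

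The highest HOX gene, HOXB2, showed no change beyond its spread: it was at 57.6, 56.4 and 55.8 CPM in siSCR and 58.6, 55.1 and 57.5 CPM in siSURF2 (0.01 ± 0.06, edgeR adjusted p = 0.88). HOXA7, a trunk gene, had 22, 22 and 32 counts in siSCR and 35, 29 and 59 in siSURF2, with overlapping CPM (0.62 ± 0.27, adjusted p = 0.056), and was called without siSURF2 replicate 2 (0.82, adjusted p = 0.015) or siSCR replicate 3 (0.77, 0.048). HOXA7 was also called with upper-quartile factors (adjusted p = 0.044), no factors (0.047) and the 1 CPM filter (0.045). HOXC6 passed without siSCR replicate 1 (0.25, adjusted p = 0.021). It also passed with upper-quartile factors (adjusted p = 0.031) and no factors (0.044). Another HOXA trunk gene, HOXA6, was at 1.37, 1.34 and 1.75 CPM in siSCR and 2.04, 1.81 and 1.30 in siSURF2. HOXA4 was at 2.32, 2.78 and 1.95 and at 1.82, 2.22 and 2.45 CPM. Both had overlapping groups, with log2 fold changes of 0.20 ± 0.27 and -0.12 ± 0.22, and were not called.

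Paralog groups 9 and 11 were not called in HOXA and HOXD. HOXA9, a leukaemia oncogene, was at 13.5, 12.4 and 11.2 CPM in siSCR and 10.9, 11.4 and 13.6 in siSURF2 (-0.04 ± 0.11). HOXD9 was at 7.74, 7.06 and 9.09 and at 7.97, 7.64 and 6.70 CPM (-0.10 ± 0.13). HOXA11, with HOXD11 a gene of the forearm, was at 10.8, 8.88 and 10.7 and at 8.30, 10.0 and 9.65 CPM (-0.12 ± 0.12). All of these overlapped between groups. HOXD11 was at 6.61, 5.56 and 6.11 CPM in siSCR and 6.16, 5.47 and 6.10 in siSURF2 (-0.04 ± 0.14), and HOXB7 at 6.01, 4.65 and 5.55 and at 5.88, 6.30 and 4.90 CPM (0.08 ± 0.15). HOXA13, of digits and the urogenital tract, had 68 to 86 counts in siSCR and 59 to 91 in siSURF2 (-0.01 ± 0.18). None of these 6 genes was called. Each SE leaves room for a change as small as that called for HOXB9 (-0.17). It leaves none for changes as large as those of HOXC8 (-1.51) or HOXB5 (1.27).

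Promoters are shown for HOXA3 and HOXC4, 2 called genes of different clusters with log2 fold changes of 0.76 and 0.80. The windows are from RefSeq (GRCh38.p14), 250 bases before to 50 after a transcript start, and the HOXA3 window is that of its most upstream start. Capitals mark exact runs of at least 10 bases that the windows share at nearly the same distance from the start.
HOXA3 (chr7:27152534-27152833, minus strand): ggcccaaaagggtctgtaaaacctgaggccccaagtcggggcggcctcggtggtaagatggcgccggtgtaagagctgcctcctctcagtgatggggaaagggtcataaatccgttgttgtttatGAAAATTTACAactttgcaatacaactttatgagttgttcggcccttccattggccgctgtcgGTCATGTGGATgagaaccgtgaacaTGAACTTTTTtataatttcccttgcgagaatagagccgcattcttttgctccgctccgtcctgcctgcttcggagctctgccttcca
HOXC4 (chr12:54016638-54016937, plus strand): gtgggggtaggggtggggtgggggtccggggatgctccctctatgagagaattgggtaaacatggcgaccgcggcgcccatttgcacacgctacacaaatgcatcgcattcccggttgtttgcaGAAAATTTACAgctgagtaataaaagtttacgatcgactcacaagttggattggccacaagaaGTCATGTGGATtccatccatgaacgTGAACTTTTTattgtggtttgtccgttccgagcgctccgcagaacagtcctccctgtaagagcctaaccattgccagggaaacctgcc
The shared runs lie 125 and 126, 62 and 63, and 37 and 38 bases before the start and cover 32 bases of each window. The HOXC5 window in RefSeq is the same stretch as that of HOXC4. Among 35116 windows of all genes, the runs occur in 11, 8 and 34. RefSeq windows were found for 20 of the 39 genes, 27 windows in all, and for none of HOXC8, HOXB5 and HOXA5. Of 329 pairs of HOX windows 29 share a run at least as long, so a run of this length is not particular to this pair. That count includes the pair itself and its copy with HOXC5. Whether other pairs share several runs at like distances from the start was not counted. The letters TGATTNAT, the site that PBX and HOX proteins bind together, were searched on both strands and found in 2 of 27 HOX windows (7.41%) and 2.82% of all windows. CTGTCA, the MEIS site, was found in 4 (14.8%) and in 15.8%. Neither was in the HOXA3 or HOXC4 window.

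HOX clusters also hold microRNAs, of which the miR-196 family, in HOXA, HOXB and HOXC, is known to repress HOX mRNAs. The mature RefSeq sequences are shown with the seed, bases 2 to 8, in capitals.
hsa-miR-196a-5p: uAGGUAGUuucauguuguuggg
hsa-miR-196b-5p: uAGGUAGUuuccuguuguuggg
hsa-miR-10a-5p: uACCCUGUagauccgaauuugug
The miR-196 pair shares 1 seed and miR-10a has another. PolyA libraries do not measure mature microRNAs, and the 5 microRNA rows of the clusters had 0 to 6 counts per library. Those rows were MIR196A1, MIR196A2, MIR10B, MIR615 and MIR3185, so none was for miR-196b or miR-10a. The letters ACTACCT, which pair with the miR-196 seed, were searched on the mRNA strand of the 3′ UTRs of GENCODE 29 transcripts. HOXC8 holds them at 2 places, and both sites are shown as 22 bases that end 1 base after the match, capitals marking bases complementary to miR-196a.
HOXC8 site at chr12:54011495-54011516: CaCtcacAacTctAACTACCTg
HOXC8 site at chr12:54012231-54012252: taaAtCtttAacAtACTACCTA
Of the tested HOX genes, 7 hold the letters (HOXA5, HOXA7, HOXA9, HOXB6, HOXB7, HOXB13 and HOXC8), and 3 of them were higher, 1 lower and 3 not called, with a median log2 fold change of 0.26. Among the 24 without, 8 were higher, 4 lower and 12 not called, with a median of 0.09. Of all genes tested 52.0% were called (25.8% higher, 26.2% lower), and the share called in both sets lay near that. Only these exact letters were searched, so genes without them may hold other miR-196 sites. HOXC8 and HOXA5, which hold the same letters, changed in opposite directions.

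Within 20 kb of the clusters there were 60 genes that code for no protein, of which 19 were tested, 2 were higher, 2 lower and 15 not called (median -0.06). That is 21.1% called, against 52.0% of all genes tested. HAGLR, a long RNA antisense to HOXD3 and HOXD1, fell most. It was at 3.93, 5.56 and 6.06 CPM in siSCR and 1.70, 2.69 and 1.10 CPM in siSURF2, without overlap (-1.51 ± 0.24, edgeR adjusted p = 1.2e-05). Its exons share 13.8% of their bases with other genes. HOXC13-AS, antisense to the start of HOXC13, was at 2.68, 3.58 and 2.72 CPM in siSCR and 1.48, 2.22 and 1.85 in siSURF2 (-0.69 ± 0.22, adjusted p = 0.010), while HOXC13 itself rose. That call was lost without siSCR replicate 2 (adjusted p = 0.089) or siSURF2 replicate 1 (0.075). HOXC-AS1, which shares no exon base with another gene, was at 1.31, 2.35 and 2.62 CPM in siSCR and 3.52, 3.56 and 3.50 in siSURF2 (0.73 ± 0.22, adjusted p = 0.0057). Without siSCR replicate 1, its lowest library, the log2 fold change was 0.49 and the adjusted p 0.058. LINC02086, between HOXB9 and HOXB13, rose by 0.70 ± 0.24 (adjusted p = 0.017), and lost its call without siSCR replicate 2 (0.097), without siSURF2 replicate 1 (0.063) or with DESeq2 (0.055). HOTAIR, an RNA of the HOXC cluster known for binding Polycomb complexes, was at 7.91, 8.56 and 8.32 CPM in siSCR and 8.91, 6.20 and 8.45 in siSURF2 and was not called (-0.08 ± 0.13, adjusted p = 0.66).

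The 2 nearest other protein-coding genes on each side of each cluster gave 14 tested genes, with 4 higher, 2 lower and 8 not called (median -0.02), or 42.9% called against 52.0% of all genes. CALCOCO1, an autophagy receptor beside HOXC, rose by 0.49 ± 0.07 (edgeR adjusted p = 1.2e-06), and HIBADH, an enzyme of valine breakdown beside HOXA, by 0.45 ± 0.07 (1.8e-06). SNX11, a sorting nexin beside HOXB, fell by 0.28 ± 0.06 (2.9e-04) and CBX5, the heterochromatin protein HP1 alpha beside HOXC, by 0.26 ± 0.05 (3.7e-05). CALCOCO1 and CBX5 lie on opposite sides of HOXC and changed in opposite directions.

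HOX proteins bind DNA with TALE homeodomain partners of the PBX, MEIS and PKNOX families. Of 9 such genes 8 were tested, and 3 were higher, 1 lower and 4 not called (median 0.26), or 4 and 0 with upper-quartile factors. The 50% called is close to the 52.0% of all genes. MEIS1 rose from 10.3, 9.47 and 11.9 CPM to 16.9, 16.9 and 17.6 CPM (0.70 ± 0.10, edgeR adjusted p = 8.7e-07), with the groups apart. PBX2 was at 88.3, 91.4 and 89.9 CPM and at 84.0, 75.8 and 82.4 CPM (-0.15 ± 0.05, adjusted p = 0.019), a call lost without siSCR replicate 2 (0.094) or siSURF2 replicate 2 (0.12), without a filter (0.072) and with upper-quartile factors (0.10).

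Among genes that keep HOX clusters silent or active, Polycomb genes were called about as often as all genes, with JARID2 and PHF19 among the members that changed. The demethylase gene KDM6B, of the list of Trithorax and other activators, changed too. With ERCC library sizes, these lists and the others named here had at most 1 call each way. Of 32 Polycomb genes, all tested, 10 were higher (31.2%, against 25.8% of all genes), 7 lower (21.9%, against 26.2%) and 15 not called (median 0.01), so 53.1% were called against 52.0%. JARID2, a recruiting subunit of PRC2, rose from 22.4 ± 1.57 to 37.2 ± 1.39 CPM (0.74 ± 0.07, edgeR adjusted p = 1.5e-09), and CBX6, a chromodomain subunit of PRC1, rose by 0.58 ± 0.05 (1.4e-10). PHF19, which links PRC2 to chromatin, fell from 116.5 ± 0.93 to 64.7 ± 1.13 CPM (-0.85 ± 0.05, adjusted p = 9.2e-14), and PCGF6, of a variant PRC1, fell by 0.62 ± 0.06 (1.6e-09). Of 20 Trithorax and other activator genes, 7 were higher, 6 lower and 7 not called (median -0.01), 65% called against 52.0%. KDM6B, a demethylase that removes the Polycomb mark and acts on HOX genes, was at 20.3, 19.7 and 20.1 CPM in siSCR and 65.0, 64.8 and 63.5 CPM in siSURF2. The groups were far apart (1.69 ± 0.06, adjusted p = 3.4e-18). DOT1L, a histone methyltransferase of active HOX genes, rose by 0.44 ± 0.05 (8.9e-08), while RBBP5 and DPY30, core subunits of the MLL complexes, fell by 0.36 ± 0.06 (6.5e-06) and by 0.32 ± 0.06 (1.0e-04).

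Of 17 retinoic acid pathway genes 9 were tested, and 2 were higher, 2 lower and 5 not called (median 0.08), 44.4% called against 52.0% of all genes. STRA6, the cell-surface receptor for vitamin A uptake, was at 0.595, 0.535 and 0.976 CPM in siSCR and 6.87, 5.94 and 5.10 CPM in siSURF2, an 8.51-fold higher level (3.06 ± 0.24, edgeR adjusted p = 1.1e-11). CYP26B1, which breaks retinoic acid down, rose by 0.24 ± 0.08 (adjusted p = 0.015) with overlapping groups. Its call was lost without siSCR replicate 1 (0.061), siSCR replicate 3 (0.095, log2 fold change 0.17) or siSURF2 replicate 1 (0.072). RARA, a retinoic acid receptor, fell by 0.32 ± 0.06 (4.8e-05).

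**Figure D5:**
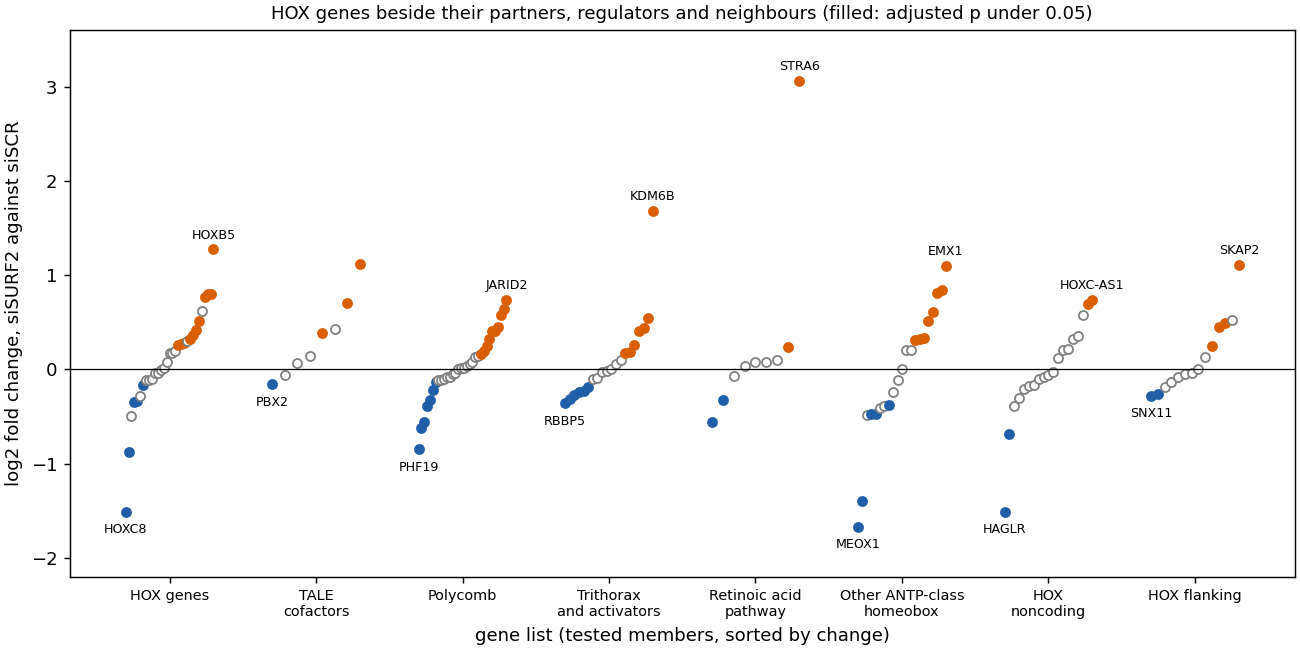
Log2 fold change of siSURF2 against siSCR for the tested members of the HOX genes and 7 other gene lists, sorted within each list; filled orange points were called higher, filled blue points lower and open points not called by edgeR, and most of the outermost members are named. HOXC8 at -1.51 and HOXB5 at 1.27 bound the HOX genes, STRA6 at 3.06 lies highest, and calls in both directions occur in all 8 lists.

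Homeobox genes outside the clusters were described for comparison. Of 42 other genes of the ANTP class, to which HOX genes belong, 21 were tested, and 8 were higher, 5 lower and 8 not called (median 0.01), 61.9% called against 52.0% of all genes. EMX1, of the forebrain, rose from 1.85, 1.44 and 1.44 CPM to 3.47, 3.36 and 3.25 CPM (1.09 ± 0.21, edgeR adjusted p = 8.4e-05), and DLX4 rose by 0.52 ± 0.09 (1.7e-05). MEOX1, of the somites, fell by 1.67 ± 0.44 (0.0024) with overlapping groups, and by 2.57 without siSURF2 replicate 1. Of the 8 ParaHox and EVX genes, the closest relatives of HOX genes, 2 were tested and 0 called by edgeR, DESeq2 or limma-voom, nor was either at an unadjusted p under 0.05. PDX1, the pancreas regulator, was at 0.655, 0.535 and 0.565 CPM in siSCR and 0.220, 0.361 and 0.450 in siSURF2 (-0.74 ± 0.46, adjusted p = 0.18).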

How the data were processed

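PolyA RNA of 3 siSCR and 3 siSURF2 libraries of U2OS cells was sequenced. The values the authors deposited are raw read counts of each gene, not normalised. Per the submitters' processing notes, fastp 0.23.1, STAR 2.5.2b and the GRCh38 build were used. How reads were counted, on which annotation and with which strand setting, is not given in the sources used. The 58051 gene rows were used, and 92 spike-in rows (1.12% to 1.72% of counts) were left out of all fits and totals. Reads of overlapping or near-identical genes may have been split or dropped.

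Genes passing filterByExpr (minimum count 10, minimum total 15) were tested across all 17561 with the quasi-likelihood test of edgeR 4.0.16 (R 4.3.3, TMM factors, robust dispersion, no covariate), with Benjamini-Hochberg adjustment and a threshold of 0.05. CPM values use TMM-scaled totals, and FPKM divides them by the union of exons in GENCODE 29. The common biological coefficient of variation was 5.12%. The precision is limited by 16.8 to 20 counts per CPM. Shares and ratios were compared with exact two-sided permutation tests. The program was tested on simulated data.

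Members, lists and markers were chosen with earlier results of these data known. Values per library are given for HOX genes with at least 1 FPKM and for the 5 called genes with the largest change in each direction. From each other list the text names, by adjusted p, at most 2 called genes in each direction, or the first gene where none was called; HOTAIR and the markers were added by name. Alternatives were RLE, upper-quartile and no factors, library sizes from ERCC spike-ins, no filter and a 1 CPM filter, DESeq2 1.42.0, limma-voom (limma 3.58.1), a replicate block, leaving out each library, other lengths and levels, and shares of counts. Some genes and sequences that these rules take are not reported here.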

Additional observations from a re-analysis of the deposited data

How the results depend on the processing

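Of the 16 called HOX genes, HOXC8 and HOXB5 were called under all 15 alternatives, and 10 under the 14 other than library sizes set by ERCC spike-ins. The remaining 6 were HOXB6, HOXB9, HOXB13, HOXC11, HOXD3 and HOXD10. No called HOX gene changed direction under any alternative.

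With ERCC library sizes, where the spike-in share differed within groups (1.12% to 1.72% over all libraries), 802 genes were called higher and 825 lower, against 4535 and 4596. The HOX genes then had 1 higher and 1 lower, TALE cofactors 1 and 0, Polycomb 0 and 1, Trithorax and activators 1 and 0, retinoic acid genes 1 and 0, other ANTP-class genes 1 and 1, noncoding genes 0 and 1, and flanking genes 0 and 0. The cause was not tested.

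HOX genes called lower numbered 3 in place of 5 with upper-quartile factors, no factors, no filter, the 1 CPM filter and DESeq2, and 3 to 5 on leaving out 1 library (3 without siSCR replicate 2, siSURF2 replicate 1 or siSURF2 replicate 2). HOX genes called higher ran from 8 to 11 on leaving out 1 library. TALE cofactors called lower were 0 with upper-quartile factors and no filter, and 0 to 1 on leaving out 1 library. ANTP-class genes called lower were 3 with the 1 CPM filter and DESeq2, and those called higher 5 (without siSCR replicate 3) to 9 on leaving out 1 library. Noncoding genes called higher were 1 with DESeq2 and 1 (without siSCR replicate 2) to 4 (without siSURF2 replicate 2), and those called lower 1 to 3. Retinoic acid genes called higher were 1 to 2.

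Signs turned only for HOX genes that were not called. HOXA9 had a log2 fold change of 0.0059, HOXD11 of 0.0042 and HOXA13 of 0.033 with upper-quartile factors, HOXA13 of 0.014 with no factors and 0.0072 with no filter, and HOXB2 of -0.025 with ERCC sizes. On leaving out 1 library, HOXA4 ran from -0.25 to 0.035, HOXA9 from -0.14 to 0.036, HOXA13 from -0.12 to 0.15, HOXB2 from -0.0063 to 0.036, HOXB7 from -0.013 to 0.18, HOXB8 from -0.86 to 0.072 and HOXD11 from -0.10 to 0.0099.

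Among HOX genes with at most 10% of exon bases shared, 14 were expressed. Taken over counts, the siSCR shares were 13.4% for HOXA, 43.1% for HOXB, 33.0% for HOXC and 10.5% for HOXD, and 28.6%, 24.9% and 46.5% for anterior, central and posterior genes; the exact permutation p between groups was then 0.20 for HOXC and 0.50 for posterior genes, which overlapped, and 0.10 for HOXD, which did not.

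Same-numbered libraries did not deviate together (correlations of 0.031, -0.11 and 0.00079), and 1 of 6 libraries correlated best with its own number. No pairing by number was seen, but so few libraries cannot exclude it. With a replicate block, 10 HOX genes were higher and 4 lower, and 4478 and 4550 of all genes. Genes near 1 CPM rest on about 20 counts per library, which limits HOXD3, HOXB5, HOXA7, HOXA6, HOXB4 and HOXA5, all under 2 CPM in siSCR.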
